A study of Mus musculus with 4 samples.

Results

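The type I interferon-stimulated genes described here are 37 genes chosen by name, and each was found once among the 32285 genes of the 4 deposited count matrices. They were followed in immune cells of 2153L mammary tumours, transplanted into mammary fat pads of female Balbc mice. One group of mice received vehicle and another docetaxel (20 mg/kg). ORIN1001 (150 mg/kg) was given alone or together with docetaxel at these doses (the combination), and tumours were taken after 8 days. CD45+ cells were sorted and profiled by droplet single-cell RNA sequencing, with 1 library for each of the 4 groups. ORIN1001 blocks the RNase activity of IRE1α, a sensor of unfolded proteins whose best known substrate is Xbp1 mRNA, and docetaxel stabilises microtubules. The labels do not say how many mice went into a library. Every difference below is therefore between single libraries, with no replicate check and no p-value. Whether the values of single mice would overlap between groups cannot be told. Intervals in brackets are exact 95% intervals for 2 counts and cover counting error only.

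Type I interferons signal through the receptor chains IFNAR1 and IFNAR2 and the kinases JAK1 and TYK2. The signal leads to the complex ISGF3, which holds STAT2 and IRF9 and binds the interferon-stimulated response element in the promoters of target genes. The targets include sensors of viral RNA, enzymes that degrade or bind it, IRF7, which amplifies interferon production, and USP18, which restrains the receptor. Many of these genes also respond to interferon γ or λ, so their level does not name the ligand. In tumours, such genes are known from dendritic cells and myeloid cells that take up nucleic acid, and from T cells exposed to interferon.

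The promoters below are printed because they hold the letters of the element the whole list is named for. They also show which pairs of members have promoter stretches that look alike. Of the 37 members, 30 had a window of 250 bases before to 50 bases after a start in RefSeq (GRCm38.p6), and no window was matched for Oas2, Usp18, Dhx58, Ifi27l2a, Rtp4, Parp9 and Parp14. The core of that element (GAAA, any 2 bases, GAAA), searched on both strands, was present in 15 of the 30 members (50%) and in 3.99% of all 27025 genes with a window. The core TTCNNNGAA of the interferon γ element, also searched on both strands, was present in 7 of the 30 (23.3%) and in 9.55% of all genes. The 2 patterns were counted separately, and overlapping matches were joined in the capitals. Each stretch lies before the annotated start and reads 5′ to 3′ on the gene's strand, with matches of the first core, or of its reverse complement (TTTC, any 2 bases, TTTC), in capitals. A match describes letters and not binding.
Isg15, chr4:156200845-156200926, minus strand: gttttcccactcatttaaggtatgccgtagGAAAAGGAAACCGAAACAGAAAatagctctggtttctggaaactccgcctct
Rsad2, chr12:26456533-26456602, minus strand: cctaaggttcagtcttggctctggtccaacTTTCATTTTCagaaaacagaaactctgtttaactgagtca
Bst2, chr8:71537557-71537632, minus strand: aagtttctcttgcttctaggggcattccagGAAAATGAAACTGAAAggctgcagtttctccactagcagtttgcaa
Stat2, chr10:128270248-128270315, plus strand: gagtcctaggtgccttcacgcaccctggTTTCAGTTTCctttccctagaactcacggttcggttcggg
Ifit3, chr19:34583343-34583446, plus strand: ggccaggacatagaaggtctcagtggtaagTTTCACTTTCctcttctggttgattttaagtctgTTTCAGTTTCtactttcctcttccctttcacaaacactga
Ifit3b, chr19:34607739-34607842, plus strand: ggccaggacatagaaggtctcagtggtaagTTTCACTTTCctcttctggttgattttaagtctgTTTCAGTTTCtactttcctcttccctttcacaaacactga
Oas1a, chr5:120907526-120907575, minus strand: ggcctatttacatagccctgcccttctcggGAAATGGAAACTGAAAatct
Oas1g, chr5:120887614-120887661, minus strand: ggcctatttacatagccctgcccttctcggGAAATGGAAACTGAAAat

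The Isg15 stretch holds chained GAAA repeats 78 bases before the start, and Rsad2, Bst2 and Stat2 hold 1 run each, 120, 130 and 222 bases before theirs. Ifit3 and Ifit3b carry the same pair of matches, and their 104 printed bases are identical at all 104 positions. Oas1a and Oas1g are identical over the 48 bases compared. Many members lie in clusters: the 5 Ifit genes fall within chr19:34550694-34650009, Oas2, Oas3, Oas1g and Oas1a within chr5:120730333-120907521, the Trim30 genes within chr7:104355382-104465193, and Parp14, Dtx3l and Parp9 within chr16:35832874-35972605 (GENCODE M21, GRCm38; all are annotated as protein-coding). Within these clusters the printed pairs share their promoter letters over the bases compared, and their transcript sequences were not compared. Whether reads of Ifit3 and Ifit3b, or of Oas1a and Oas1g, could be told apart was therefore not tested, and the values within each pair are uncertain. The same holds for Trim30a, Trim30b and Trim30c, whose sequences were not compared here. In neutrophils the median log2 ratio of docetaxel to vehicle was 1.14 over the 15 members whose window holds the first core and 1.06 over the 15 whose window does not. For ORIN1001 to vehicle the medians were 0.52 and 0.51. For docetaxel the medians with and without the core were 1.17 and 0.84 in macrophages and 0.58 and 0.38 in CD8 T cells, and for ORIN1001 they were 0.30 and 0.38 in macrophages and -0.73 and -0.87 in CD8 T cells.

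The libraries held 8464 to 10362 barcodes and 64257802 to 86383509 unique molecular identifiers (UMIs, counted molecules), and any pair of libraries shared 96 to 134 barcode sequences, at most 1.52% of either. Cells with at least 200 genes and under 10% mitochondrial UMIs were kept, 8343 to 10239 a library. Each kept cell was placed in a class by its own marker UMIs; no member gene is a marker, and the classes are called by their gate (neutrophils for neutrophil-gated cells, and so on). Between 87.5% and 92.9% of kept cells were placed. Neutrophils (3324 to 5975 cells), macrophages (880 to 2106) and CD8 T cells (399 to 1415) are described in most depth. The monocyte, conventional dendritic cell (cDC), plasmacytoid dendritic cell (pDC), NK, regulatory T cell (Treg) and epithelial classes were smaller, and ORIN1001 cDC (40 cells), pDC (28) and epithelial cells (13) and docetaxel epithelial cells (20) were below 50 cells. Epithelial cells were present in all 4 libraries although the cells had been sorted for CD45, at 13 to 84 cells a library.

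Levels are CPM, a gene's UMIs scaled to 1000000 UMIs of the class in that library. The kit reads 3′ ends and the counts are not divided by length, so levels are compared between libraries and classes and not between genes. A member was compared where it had at least 10 UMIs in either library, and it is called higher or lower where its ratio passed 1.5-fold.

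Summed over all 37 members, neutrophils had the highest level of any class in every library, and NK cells and epithelial cells the lowest. In vehicle the sum was 10408 CPM in neutrophils, 7636 in pDC, 6243 in monocytes, 5694 in CD8 T cells, 4964 in Treg, 4615 in cDC, 2607 in macrophages, 1467 in NK cells and 1273 in epithelial cells. With docetaxel the neutrophil sum was 22183 CPM, and the monocyte sum (12820.5) came before that of pDC (11269). Macrophages, with 2607 CPM, were thus low in vehicle beside the other myeloid classes, and stood at 5352 with the combination. CD8 T cells stood at 5694 CPM in vehicle, 3593 with ORIN1001, 8111 with docetaxel and 4991 with the combination.

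The first comparison, docetaxel against vehicle, concerns the taxane given alone. The members were higher with docetaxel in all 9 classes, by a median of about 2-fold in neutrophils, macrophages, monocytes, NK cells and Treg, and by less in cDC, pDC and CD8 T cells. In neutrophils all 37 members passed 1.5-fold (median log2 ratio 1.08), where 11.3% of all genes tested did. Macrophages had 34 of 37 higher (median 1.04; 5.09% of all genes) and monocytes 33 of 37 (1.25; 9% of all genes). Among lymphocytes, 32 of the 35 members tested were higher in Treg (1.16; 13.8% of all genes), 22 of 29 in NK cells (1.0; 10.8%) and 15 of 37 in CD8 T cells (0.52; 10.5%). Counts were 15 of 36 in cDC (0.51; 15.5% of all genes) and 20 of 32 in pDC (0.80; 11.1%). Epithelial cells had 29 of 30 higher (1.79), where 25.5% of all genes were, with 20 cells behind the docetaxel value. The median over all genes tested lay between -0.03 and 0.09 in these classes.

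The second comparison, ORIN1001 against vehicle, concerns the IRE1α inhibitor alone. Here the classes parted: members were higher in neutrophils and, by less, in macrophages, and lower in CD8 T cells and cDC. In neutrophils 16 of 37 passed 1.5-fold upwards (median 0.52), where 6.43% of all genes did, and 36 of 37 lay above a ratio of 1. Macrophages had 7 of 37 higher (0.30; 6.55% of all genes) and monocytes 2 of 37 (0.10; 9.14%). In CD8 T cells all 35 members tested lay below a ratio of 1, 20 of them past 1.5-fold (median -0.81), where 6.43% of all genes were lower; the intervals of 31 members lay below 0. In cDC 16 of 33 were lower (-0.57; 12.8% of all genes), from 40 cells with ORIN1001 and 72 in vehicle. No single direction was seen in the other lymphoid classes or in pDC. NK cells had 3 of 29 higher (9.26% of all genes) and 5 lower (7.3%), pDC had 7 of 27 higher (11.4%) and 7 lower (16.3%), and Treg had 5 of 30 higher (14.6%) and 4 lower (11.8%). Epithelial cells had 16 of 30 higher (0.64), where 20.6% of all genes were, from 13 cells with ORIN1001. The median over all genes tested was -0.11 in neutrophils and between -0.03 and 0.04 in the other classes. The difference between classes has no test here.

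The third comparison sets both agents together against vehicle. In neutrophils 36 of 37 members were higher (median 1.28; 16.6% of all genes), in macrophages 35 of 37 (1.14; 8.14%), in monocytes 34 of 37 (1.18; 9.8%), in Treg 30 of 35 (0.92; 16.7%) and in epithelial cells 28 of 33 (1.47; 15.5%). NK cells had 17 of 29 higher (0.63, with 13.1% of all genes) and pDC 14 of 31 (0.48, with 13.8%). In cDC 6 of 36 were higher (0.23), close to the share of all genes (13.1%), and the medians of the interval ends were -0.09 and 0.59. CD8 T cells had the only median below 0 (-0.14), with 2 of 37 members higher (11.6% of all genes) and 2 lower (7.96%). In CD8 T cells 29 of 37 members lay below a ratio of 1, beside 9 of 36 in cDC and 6 of 31 in pDC. This comparison and the 2 before it share the vehicle library.

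Scaling by trimmed means in place of total UMIs shifted ratios in neutrophils by up to 0.11 in the comparisons with vehicle, and by 0.26 for the combination against ORIN1001. On that scale the neutrophil medians were 0.63 for ORIN1001, 0.98 for docetaxel and 1.19 for the combination. In the other 8 classes the shift was at most 0.12.

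**Figure D1:**
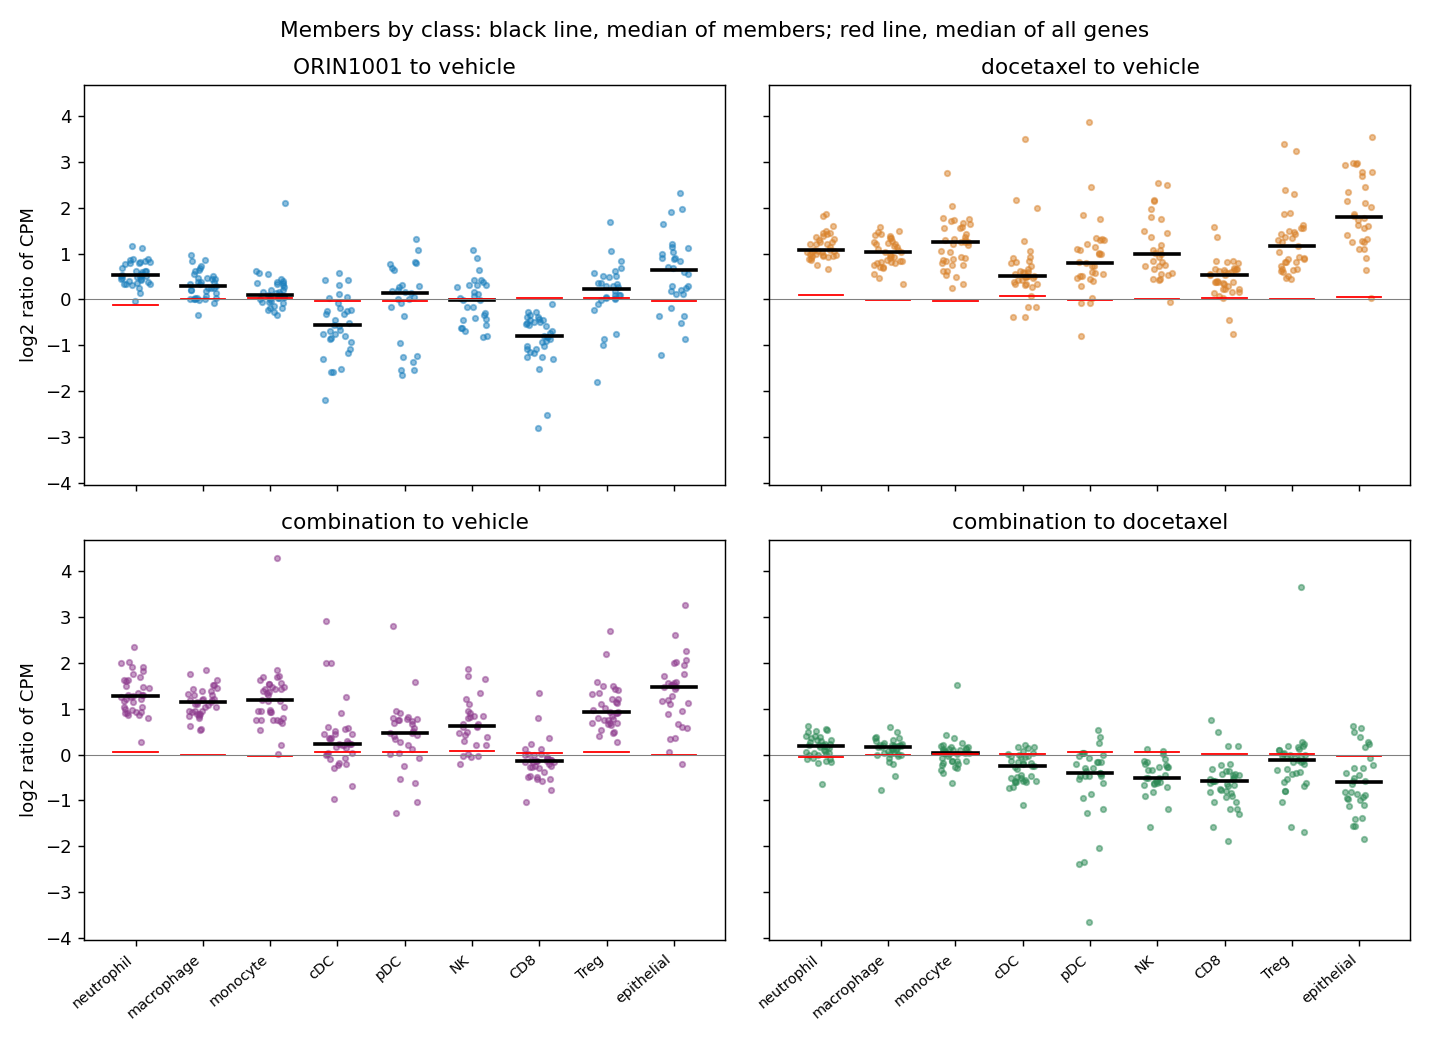
Log2 ratios of member CPM by gated class for 4 comparisons; each point is 1 member with at least 10 UMIs in either library, the black line is the median of the members and the red line that of all genes tested. Docetaxel points lie mostly above 0 in every class, while ORIN1001 points lie above 0 in neutrophils and below 0 in CD8 T cells.

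In neutrophils all 3 transcription factors of the list were higher with docetaxel, as were all 37 members, where 11.3% of all genes were. With ORIN1001 1 of 3, Stat2, passed 1.5-fold, where 6.43% of all genes did. Irf7 stood at 497 CPM in vehicle, 709 with ORIN1001, 1039 with docetaxel and 1209 with the combination. Stat2 stood at 66.9, 115, 164 and 217 CPM in the same order, and Irf9 at 107, 149.9, 169 and 199 CPM. The order of libraries was the same for these 3 genes, lowest in vehicle and highest in the combination. For docetaxel the log2 ratios to vehicle were 1.06 (1.03 to 1.10) for Irf7, 1.29 (1.19 to 1.39) for Stat2 and 0.66 (0.58 to 0.75) for Irf9. The RNA sensors Ifih1 (MDA5), Ddx58 (RIG-I) and Dhx58 (LGP2) were higher with docetaxel by 0.92 to 1.20.

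The 2′-5′ oligoadenylate synthetases, whose products activate RNase L, were counted together with their relatives Oasl1 and Oasl2. Of these genes 6 of 6 were higher with docetaxel, like all 37 members, and 3 of 6 with ORIN1001. The shares of all genes were 11.3% and 6.43%. Oasl2 was among the members with the highest ORIN1001 ratios in neutrophils, at 198 CPM in vehicle, 428 with ORIN1001, 511 with docetaxel and 744 with the combination. The ORIN1001 log2 ratio of Oasl2 was 1.12 (1.06 to 1.17). Of the IFIT family, which binds viral RNA, 5 of 5 were higher with docetaxel and 3 of 5 with ORIN1001, beside the same shares of all genes. Ifit3 stood at 145, 265, 439.7 and 493 CPM (vehicle, ORIN1001, docetaxel, combination) and its copy Ifit3b at 147, 254, 515 and 555 CPM. Ifit3b had a docetaxel log2 ratio of 1.81 (1.75 to 1.87), the second highest of the 37 in this class. Both copies stood in the same order of libraries.

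Among effectors in neutrophils, Rsad2, the radical SAM enzyme viperin that makes a chain-terminating nucleotide, stood at 960.3 CPM in vehicle, 1397 with ORIN1001, 1980.1 with docetaxel and 1958 with the combination. Its combination level was no higher than its docetaxel level (log2 ratio -0.02, -0.04 to 0.01). Bst2, the tetherin that holds virions at the cell surface, stood at 195, 232, 466 and 480.2 CPM in the same order. Bst2 was thus near its docetaxel level in the combination and had a small ORIN1001 ratio of 0.25 (0.19 to 0.31). Xaf1, an antagonist of the apoptosis inhibitor XIAP, had the highest ORIN1001 ratio of the 37, with 99.5 CPM in vehicle, 221 with ORIN1001, 259 with docetaxel and 400.1 with the combination. Its log2 ratios to vehicle were 1.15 (1.08 to 1.23), 1.38 (1.30 to 1.46) and 2.01 (1.93 to 2.09).

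Isg15, the ubiquitin-like modifier at the centre of the ISG15 system, stood at 2698 CPM in vehicle neutrophils, 3793 with ORIN1001, 5187 with docetaxel and 6794 with the combination. Usp18, which removes ISG15 from proteins and restrains IFNAR2, did not follow it. Usp18 stood at 222 CPM in vehicle, 282 with ORIN1001 and 418 with docetaxel, but at 268 with the combination. Its log2 ratio of combination to docetaxel was -0.64 (-0.71 to -0.57), the lowest of the 37 members in neutrophils, where Isg15 had 0.39 (0.37 to 0.41). Usp18 was also the 1 member of the list that did not pass 1.5-fold in the combination against vehicle, at 0.27 (0.20 to 0.34).

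Of the remaining neutrophil members, Trim30c, a gene of the TRIM30 cluster, had the highest docetaxel and combination ratios. It stood at 20.2 CPM in vehicle, 34.8 with ORIN1001, 73.5 with docetaxel and 103 with the combination, with a combination log2 ratio to vehicle of 2.35 (2.18 to 2.52). Parp9, which acts with the ubiquitin ligase DTX3L, stood at 64.1, 96.5, 108 and 119.5 CPM, so its ORIN1001 ratio (0.59) was close to its docetaxel ratio (0.75). Phf11d, at 4.33, 4.25, 8.92 and 7.87 CPM, was the lowest with ORIN1001: its ratio was -0.03 (-0.44 to 0.39), and 0.078 when scaled by trimmed means and -0.84 with clusters in place of gates. Over the whole list, 28 of 37 members stood in the order vehicle, ORIN1001, docetaxel, combination, from lowest to highest. In the other 9 members docetaxel was highest: Usp18, Rsad2 and its neighbour Cmpk2, Ifit1, Oas1a, Oas1g, Oas2, Eif2ak2 (the kinase PKR) and Phf11d.

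**Figure D2:**
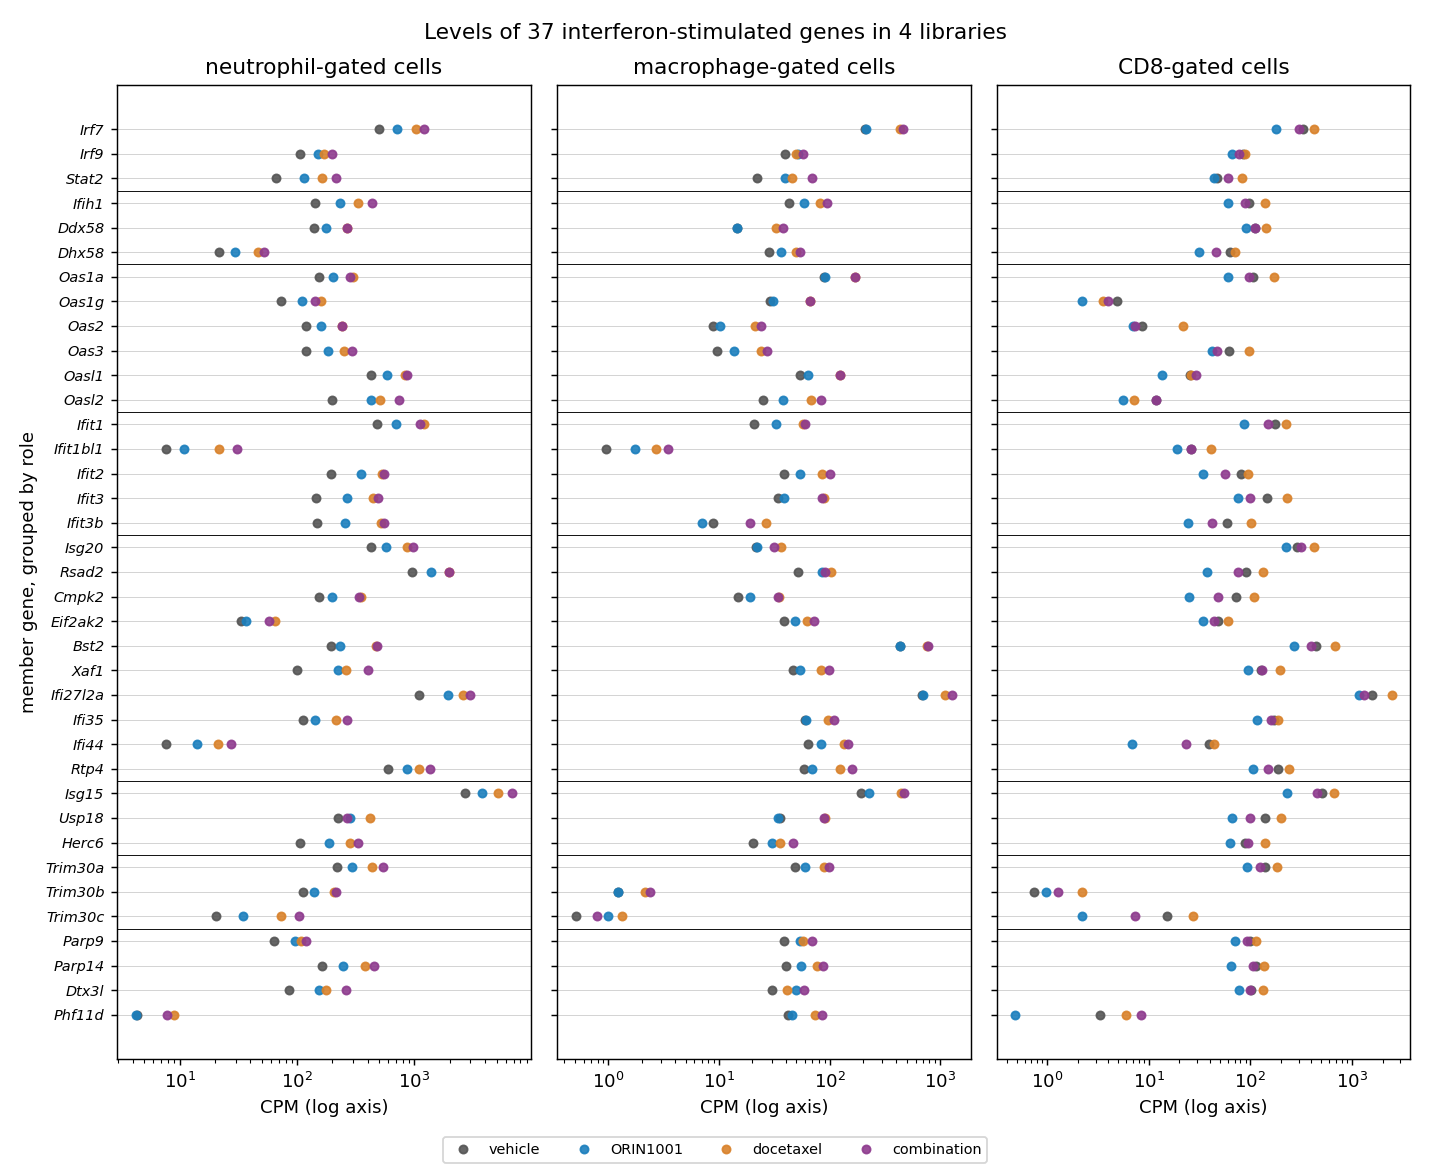
Level of each of the 37 members in CPM (log axis) in neutrophils, macrophages and CD8 T cells, 1 point per library, with members grouped by role between the horizontal lines. In neutrophils the vehicle point lies lowest for 36 members, and in CD8 T cells the ORIN1001 point lies lowest for 36.

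Macrophages had the docetaxel difference with little of the ORIN1001 difference in several leading members. Isg15 stood at 191 CPM in vehicle, 226 with ORIN1001, 446 with docetaxel and 471 with the combination. Irf7 stood at 209, 212, 431 and 466 CPM, Bst2 at 435, 435, 757 and 779 CPM, and Usp18 at 35.7, 33.9, 90.4 and 89.1 CPM. For Irf7, Bst2 and Usp18 the ORIN1001 level was within counting error of vehicle, with log2 ratios of 0.02 (-0.04 to 0.07), 0.00 (-0.04 to 0.04) and -0.07 (-0.22 to 0.07). In contrast to neutrophils, Usp18 in macrophages stood near its docetaxel level in the combination (log2 ratio -0.02, -0.10 to 0.06).

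Other macrophage members were higher with ORIN1001 too. Stat2 stood at 22.3 CPM in vehicle, 39.7 with ORIN1001, 45.7 with docetaxel and 69.1 with the combination, with an ORIN1001 log2 ratio of 0.83 (0.69 to 0.98). Rsad2 stood at 52.3, 84.5, 102 and 90.8 CPM and Oasl2 at 24.9, 38.1, 67.4 and 84.3 CPM. Dtx3l, the ubiquitin ligase that pairs with PARP9, was higher with ORIN1001 (49.8 CPM) than with docetaxel (41.4), against 30.1 in vehicle and 58.5 in the combination. Irf9 showed the same order, with 39.9 CPM in vehicle, 52.1 with ORIN1001, 50.1 with docetaxel and 57.9 with the combination. Dtx3l and Irf9 were the 2 of 37 macrophage members that stood higher with ORIN1001 than with docetaxel, and in neutrophils there was no such member. For Irf9 that difference lay within the counting intervals of its ratios to vehicle, 0.38 (0.26 to 0.51) and 0.33 (0.23 to 0.43).

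Among macrophage members, Ifit3b had the largest difference between the drugs. Ifit3 stood at 34.3 CPM in vehicle, 38.9 with ORIN1001, 89.8 with docetaxel and 84.9 with the combination, and Ifit3b at 8.86, 7.04, 26.6 and 19.2 CPM. Ifit3b had the lowest ORIN1001 ratio of the 37 (-0.33, -0.64 to -0.03) and the highest docetaxel ratio (1.59, 1.40 to 1.77). Ifit1bl1, at 0.958, 1.75, 2.68 and 3.45 CPM, had the highest ORIN1001 ratio among members with at least 30 UMIs, 0.87 (0.12 to 1.61), from 36 and 30 UMIs.

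In CD8 T cells the order of libraries was another: docetaxel was highest in 33 of 37 members and ORIN1001 lowest in 36, with vehicle and the combination between them. Isg15 stood at 509.8 CPM in vehicle, 228 with ORIN1001, 665 with docetaxel and 458 with the combination. Irf7 stood at 327, 178, 423 and 299 CPM, and Bst2 at 447, 269, 684 and 398 CPM. Usp18 followed at 139.5, 66.2, 202 and 99.4 CPM. These genes were all below vehicle with ORIN1001, by log2 ratios of -1.16 (-1.28 to -1.04) for Isg15, -0.87 (-1.02 to -0.73) for Irf7, -0.73 (-0.85 to -0.61) for Bst2 and -1.07 (-1.31 to -0.85) for Usp18.

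Ifit3 in CD8 T cells stood at 145 CPM in vehicle, 76.5 with ORIN1001, 229 with docetaxel and 100.4 with the combination, and Rsad2 at 89.8, 37.5, 134 and 75.3 CPM. With docetaxel present, both were again lower where ORIN1001 was added: the combination to docetaxel log2 ratios were -1.19 (-1.31 to -1.07) and -0.83 (-0.98 to -0.68). The lowest ORIN1001 ratios belonged to Trim30c, with 15.2, 2.19, 27.3 and 7.4 CPM, and to Ifi44, with 39.3, 6.82, 43.4 and 23.1 CPM. Their ratios were -2.80 (-4.02 to -1.73), from 9 and 41 UMIs, and -2.53 (-3.18 to -1.92), from 28 and 106 UMIs. Oas2 had the highest docetaxel ratio among members with at least 30 UMIs, at 8.53, 7.06, 21.9 and 7.4 CPM (1.36, 0.70 to 2.08). Phf11d had the highest combination ratio, at 3.34, 0.487, 5.98 and 8.44 CPM, from 9 and 105 UMIs.

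With ORIN1001 the ISGF3 subunits Stat2 and Irf9 in CD8 T cells stood closer to vehicle than the median of the effectors. That median log2 ratio was -0.64 over 10 genes, with a range of -2.53 to -0.35, and Irf9 (-0.38) lay within this range. Stat2 stood at 47.1 CPM in vehicle, 44.1 with ORIN1001, 83.1 with docetaxel and 60.9 with the combination, and Irf9 at 85.3, 65.7, 89.5 and 77.6 CPM. The Stat2 level with ORIN1001 was within counting error of vehicle (-0.10, -0.43 to 0.24). Ddx58, at 111, 91.3, 142 and 110.4 CPM, came next among members with at least 30 UMIs (-0.28, -0.50 to -0.06). Oasl2, at 11.9, 5.6, 7.09 and 11.9 CPM from 23 to 148 UMIs, was an exception to the order of libraries, but its direction turned with the way cells were classed: with clusters in place of gates its log2 ratios to vehicle were 0.20 for ORIN1001 and 1.46 for docetaxel.

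RNA of other cells also differed between the libraries of the CD8 class. The summed level of 10 macrophage markers in CD8 T cells was 1247 CPM in vehicle, 216 with ORIN1001, 290.1 with docetaxel and 613 with the combination, and that of 10 neutrophil markers was 623, 634, 199.7 and 75.4 CPM, with no marker of either list at 0. In CD8 T cells the 8 monocyte markers summed to 2183 CPM in vehicle, 1729 with ORIN1001, 2632 with docetaxel and 1614 with the combination. These were the largest sums of any list but that of T cells, and their part in the members' ratios was not tested. If all S100a8 and S100a9 in CD8 T cells came from neutrophils, neutrophil RNA would supply 0.67% to 2.91% of the summed member level there. In CD8 T cells with no UMI of S100a8, S100a9, C1qa, C1qb, C1qc or Apoe (108 in vehicle, 149 with ORIN1001), the ORIN1001 median was lower still, at -1.20. This subset was chosen after the data were seen, and monocyte markers were not used to choose it.

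The smaller classes are given by the members at the ends of their range. From here to the epithelial cells, the highest and lowest ratios are those among members with at least 30 UMIs in the higher library. In monocytes Ifit1 stood at 66.4 CPM in vehicle, 59.7 with ORIN1001, 270.4 with docetaxel and 214 with the combination, and Rsad2 at 152, 134, 519.9 and 546 CPM. Both were near vehicle with ORIN1001 and well above it with docetaxel, with log2 ratios of 2.03 (1.76 to 2.31) and 1.78 (1.60 to 1.96). Ifit1bl1 had the highest combination ratio of any class (4.28, 3.12 to 5.75), from 6 UMIs in vehicle and 138 in the combination. Stat2 stood at 52.8, 80.6, 132 and 129 CPM and Oasl2 at 89.5, 133, 220.2 and 243 CPM, and they had the highest ORIN1001 ratios among monocyte members with at least 30 UMIs. Irf9 had the lowest ratios for docetaxel (0.24) and the combination (0.02), and Usp18 the lowest for ORIN1001 (-0.35, -0.71 to 0.01).

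In cDC, Xaf1 stood at 78.8 CPM in vehicle, 26.3 with ORIN1001, 111 with docetaxel and 92.6 with the combination. Rsad2 stood at 90.4, 42.9, 69 and 46.5 CPM, and so was lower than vehicle in all 3 treated libraries. With clusters in place of gates the Rsad2 combination ratio was 0.064 in place of -0.96. Ifit3b (5.81, 9.7, 23.3 and 23.3 CPM) and Oasl2 (15.8, 23.5, 38.3 and 37.4 CPM) had the highest docetaxel ratios among cDC members with at least 30 UMIs. In the same set of members, Dtx3l and Parp9 had the highest ORIN1001 ratios, 0.42 (-0.12 to 0.95) and 0.32 (-0.25 to 0.89), within counting error. In cDC with a UMI of Xcr1 or Clec9a, which mark cross-presenting cells, the ORIN1001 median was -0.40, and in those without it was -1.43, from 15 and 32 cells; this split was chosen after the data were seen.

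pDC, which are known as producers of type I interferon, had Ifit1 at 10.6 CPM in vehicle, 3.14 with ORIN1001, 57.7 with docetaxel and 14.1 with the combination, and Rsad2 at 19.6, 6.28, 70.7 and 13.5 CPM. Both were high in the docetaxel library alone. Ifi44 stood at 75.5, 160.1, 173 and 132 CPM, Parp9 at 58.9, 104, 83.7 and 75 CPM, and Oasl2 at 45.3, 15.7, 99.9 and 72.6 CPM. Isg20, an RNA exonuclease, was lowest with ORIN1001 (28.3 CPM) and low in the combination (43.4), against 66.4 in vehicle and 98.3 with docetaxel. Among members with at least 30 UMIs, Dhx58 and Parp14 had the highest combination ratios, 0.96 (-0.04 to 2.10) and 0.91 (0.16 to 1.73), and Dtx3l the lowest docetaxel ratio (0.03).

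NK cells had Ifi27l2a, a small interferon-induced protein, at 41.5 CPM in vehicle, 87.5 with ORIN1001, 186 with docetaxel and 106 with the combination. Its ORIN1001 ratio of 1.08 (0.57 to 1.59) became -0.27 with clusters in place of gates. Ifit1 (9.23, 6.73, 51.8 and 33.8 CPM), Ifit3 (10, 13.5, 39.2 and 32.5 CPM) and Oas3 (9.23, 14.4, 53.2 and 17.9 CPM) had the highest docetaxel or combination ratios. They were thus highest with docetaxel. Oasl1 had the lowest ORIN1001 (-0.83) and combination (-0.21) ratios, Irf9 was at 0.32 (-0.28 to 0.92) with ORIN1001, and Dtx3l had the lowest docetaxel ratio (-0.06, -0.66 to 0.52).

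Treg had Usp18 at 36.1 CPM in vehicle, 75.4 with ORIN1001, 188 with docetaxel and 108 with the combination, but its ORIN1001 ratio of 1.06 (0.38 to 1.79) became -0.034 with clusters in place of gates. Bst2 stood at 388, 215, 639 and 516 CPM and Ddx58 at 55.7, 100.2, 103 and 124 CPM. Bst2 was therefore below vehicle with ORIN1001 in Treg as in CD8 T cells (-0.85, -1.13 to -0.59), whereas Ddx58 was above it. Oasl1 and Oasl2 had the highest docetaxel ratios, 3.38 (1.77 to 5.69) and 3.23 (1.28 to 6.32), from 3 and 2 UMIs in vehicle. Parp9 had the lowest docetaxel ratio (0.44, -0.02 to 0.92). In this class the 10 macrophage markers summed to 1959 CPM in vehicle and to 166 to 616 CPM in the treated libraries; their part in these ratios was not tested.

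Epithelial cells had Isg15 at 67.8 CPM in vehicle, 59.4 with ORIN1001, 536 with docetaxel and 275 with the combination, and Ifit1 at 13.8, 27.4, 108 and 40.8 CPM. Docetaxel was thus highest for both. Oas3 (16.4, 82.2, 113 and 63.9 CPM) and Ifi27l2a (176, 694, 621 and 399.8 CPM) had the highest ORIN1001 ratios, and Ifi44 (12.4, 22.8, 84.6 and 59.3 CPM) and Herc6 (8.01, 9.14, 61.1 and 33.6 CPM) the highest combination ratios among members with at least 30 UMIs. Ddx58 was the lowest with docetaxel (0.02, -1.07 to 0.95) and with the combination (-0.20, -0.67 to 0.25), and Parp9 with ORIN1001 (-1.21, -4.29 to 0.71, from 2 UMIs). Macrophage markers summed to 28.4 CPM in vehicle epithelial cells and to 347, 428 and 151 CPM in the treated libraries, and median UMIs per cell were 28730.5 in vehicle and 6873 to 11926 in the treated libraries; the part of either in these ratios was not tested.

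The 4 libraries allow ORIN1001 to be set against its absence in 2 ways, without docetaxel (ORIN1001 to vehicle) and with it (combination to docetaxel), in library pairs that share no library. In neutrophils the members' medians lay above 0 both times, at 0.52 and 0.18, and in macrophages at 0.30 and 0.16. With docetaxel present, the members' log2 ratios ran from -0.64 to 0.63 in neutrophils and from -0.76 to 0.60 in macrophages. In that comparison 9 neutrophil and 8 macrophage members lay below a ratio of 1, and the medians of all genes tested were -0.05 and -0.01. In CD8 T cells the members were lower both times, by medians of -0.81 and -0.59. With docetaxel present, 20 of 37 were past 1.5-fold lower there, where 7.59% of all genes were lower. NK cells had 10 of 29 members lower with docetaxel present (median -0.50, with 6.73% of all genes lower), but no lower median without it (-0.02). With docetaxel present, medians were also below 0 in cDC (-0.25), pDC (-0.39), Treg (-0.13) and epithelial cells (-0.61, but 0.070 in thinned cells). Without docetaxel the medians of these classes were -0.57, 0.15, 0.23 and 0.64. Monocytes had 0.04 with docetaxel present and 0.10 without it. Docetaxel with ORIN1001 present (combination to ORIN1001) had positive medians in all 9 classes, from 0.43 in pDC to 0.92 in monocytes, including 0.78 in neutrophils and 0.55 in CD8 T cells. In neutrophils the median of all genes tested was itself 0.21 here, and the members' median was 0.52 when scaled by trimmed means. In the other classes the median of all genes lay between -0.05 and 0.08. The pDC median was -0.097 over the 14 members tested in cells thinned to 1000 UMIs. In epithelial cells this median was 0.85, and -0.71 with clusters in place of gates.

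Setting the combination against the sum of the single effects on the log2 scale, neutrophil members lay below it. The median difference was -0.38, and 36 of 37 members lay below 0, of which 34 had intervals below 0. In macrophages the median was -0.17 with 27 of 37 below 0, and 19 members had intervals below 0 and 3 above. In CD8 T cells it was 0.05 with 14 of 33 below 0, and members went both ways, with 11 intervals above 0 and 4 below. The sign of the CD8 median turned under 3 alternatives (-0.012 to -0.038). Other medians were -0.15 in monocytes, 0.20 in cDC, -0.45 in pDC, -0.31 in NK cells, -0.33 in Treg and -1.28 in epithelial cells, of which that of cDC was -0.15 with clusters in place of gates and that of Treg 0.26 in thinned cells. With 1 library a group, a single deviating library would move all members of a class at once.

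**Figure D3:**
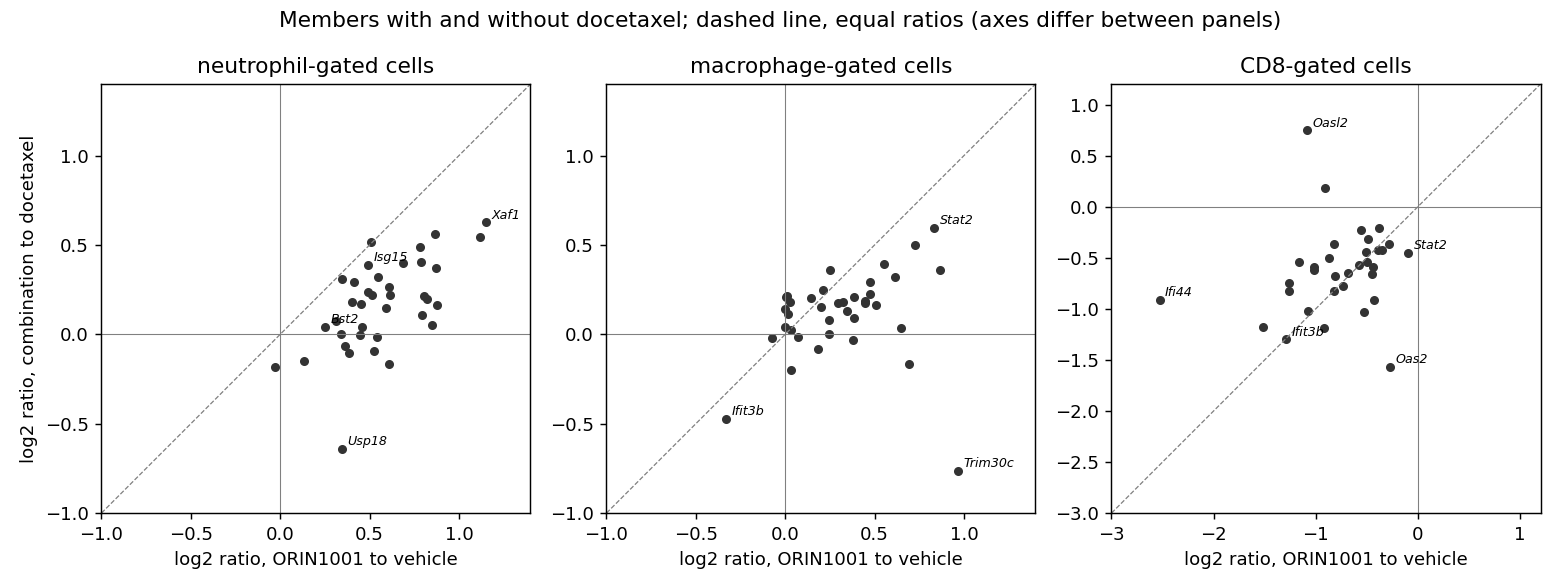
Log2 ratio of each member for ORIN1001 to vehicle (x) and for combination to docetaxel (y) in 3 classes, for members with at least 10 UMIs in all 4 libraries; the dashed line marks equal ratios and the axes differ between panels. Neutrophil points lie to the right of 0 for 36 of 37 members and mostly below the dashed line, with Usp18 lowest at -0.64, and CD8 points lie mostly below 0 on both axes.

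To see whether many cells or few carried the differences, each cell was thinned to 1000 UMIs and its member UMIs were summed. In neutrophils the median was 4 member UMIs in vehicle, 9 with ORIN1001, 13 with docetaxel and 18 with the combination. Neutrophils without a member UMI at that depth made up 13.1% in vehicle, 4.94% with ORIN1001, 4.87% with docetaxel and 0.821% with the combination (4.02%, 1.10%, 1.47% and 0.241% before thinning). Neutrophils with 20 or more made up 16.6%, 25.5%, 38.3% and 47.0%. The low end as well as the high end of the distribution thus lay above vehicle in the treated libraries, while the lower quartile was 4 with both ORIN1001 and docetaxel. In all, 130 to 156 neutrophils a library had fewer than 1000 UMIs and were left out.

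Macrophages had medians of 1, 2, 3 and 4 member UMIs in the same order of libraries, and CD8 T cells of 4, 2, 7 and 4. CD8 T cells with 20 or more made up 8.27% in vehicle, 2.27% with ORIN1001, 17.0% with docetaxel and 6.24% with the combination. A wide range was found within every library: in vehicle the 10th and 90th percentiles were 0 and 29 UMIs in neutrophils and 0 and 17.2 in CD8 T cells. pDC were narrower, from 3 to 12 in vehicle. Splitting neutrophils by a UMI of Siglecf, a gene of tumour neutrophils that was chosen after the data were seen, gave ORIN1001 medians of 0.65 with and 0.49 without, and docetaxel medians of 1.10 and 1.15.

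**Figure D4:**
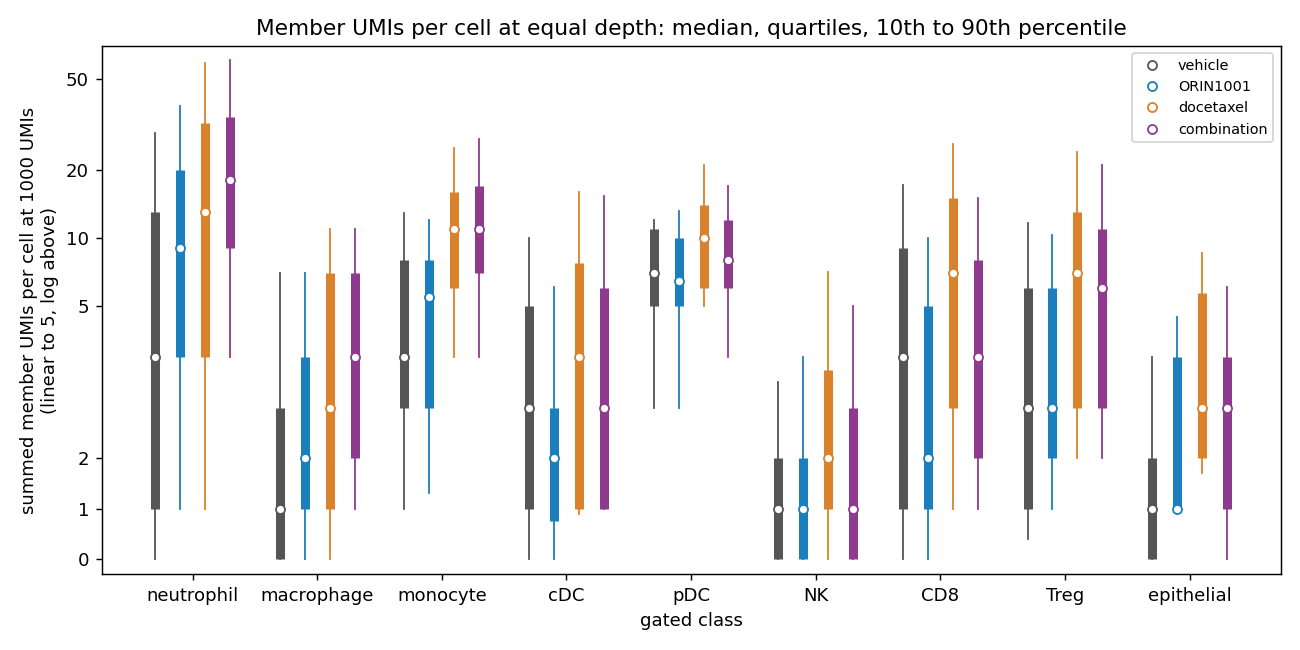
Summed member UMIs per cell after thinning to 1000 UMIs, by gated class and library: open circles are medians over cells, thick bars quartiles, thin bars the 10th to 90th percentiles, and the y axis is linear to 5 and logarithmic above. Neutrophil medians go from 4 in vehicle to 18 in the combination, and the CD8 median is lowest with ORIN1001 at 2.

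Genes of the pathway outside the list were read from lists arranged by role. Few type I interferon transcripts were counted. Ifnb1, the interferon β gene, had 44 UMIs over all kept cells in vehicle, 17 with ORIN1001, 22 with docetaxel and 27 with the combination, in 19, 8, 9 and 6 cells and in no pDC. The interferon α genes of the list had at most 7 UMIs a library each. Ifng, the interferon γ gene, was found far more often, with 1115 UMIs in vehicle, 2002 with ORIN1001, 1733 with docetaxel and 4863 with the combination. Its level per UMI in CD8 T cells was 175 CPM in vehicle and 265, 259 and 285 CPM in the treated libraries, and that class held 399, 485, 588 and 1415 cells in the same order of libraries.

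The receptor gene Ifnar1 was near vehicle in neutrophils and macrophages. Ifnar1 in neutrophils stood at 96.7 CPM in vehicle, 96.4 with ORIN1001, 98.7 with docetaxel and 89.7 with the combination, and in macrophages at 110.1, 99.95, 97.0 and 88.8 CPM. None of the 4 receptor genes was past 1.5-fold higher in neutrophils, macrophages or CD8 T cells. Past 1.5-fold lower were Ifngr1, a chain of the interferon γ receptor, in neutrophils with the combination (-0.68, -0.77 to -0.60; 12.7% of all genes were lower there), and 2 genes in CD8 T cells. Ifngr2, its partner chain, stood at 17.1, 4.38, 13.1 and 10.7 CPM in CD8 T cells, lower with ORIN1001 (-1.96, -2.84 to -1.15, from 18 and 46 UMIs) and with the combination (-0.67, -1.17 to -0.16). Ifnar2 in CD8 T cells was 135 CPM in vehicle and 77.2 CPM in the combination (log2 ratio -0.81).

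Of 7 kinases and transcription factors that carry the signal, 1 was higher and 1 lower with ORIN1001 in neutrophils, 3 were higher with docetaxel and 5 with the combination, with none lower in the last 2. In macrophages 1, 0 and 1 of the 7 were higher and none lower. The shares of all genes higher in these 3 comparisons were 6.43%, 11.3% and 16.6% in neutrophils and 6.55%, 5.09% and 8.14% in macrophages, and 14.1% of all genes were lower with ORIN1001 in neutrophils. Of 10 sensor genes outside the list, 1, 3 and 6 were higher in neutrophils and 1, 3 and 5 in macrophages, again with none lower. Zbp1, a sensor of Z-form nucleic acid, stood at 154, 374.8, 374.5 and 748 CPM in neutrophils. In CD8 T cells 1, 2 and 2 of the 7 were higher, where 10.1%, 10.5% and 11.6% of all genes were, and 1 of 7 sensors tested was lower with ORIN1001 (6.43% of all genes). The transcription factor Irf1 stood at 253, 634, 462 and 1042 CPM in neutrophils. Unlike all 37 members, Irf1 was higher with ORIN1001 than with docetaxel in neutrophils. The kinase gene Jak2 stood at 181, 183, 293 and 391 CPM there, near vehicle with ORIN1001 and highest in the combination. Of 5 restraining genes, 4 were tested in neutrophils, and 2, 3 and 3 of them were higher. Among them, Socs1, an inhibitor of JAK kinases, stood at 85.4, 148, 194 and 397 CPM in neutrophils, and so was highest in the combination, where Usp18 was not. Socs1 in CD8 T cells stood at 206, 124, 186 and 125 CPM.

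Genes that lean on interferon γ (10 genes, among them Gbp2, Gbp4 and Cxcl9) were compared with the members, since ORIN1001 and docetaxel came in another proportion there. In neutrophils their medians were 1.55 for ORIN1001, 1.63 for docetaxel and 3.09 for the combination, over 9 genes tested, where the members had 0.52, 1.08 and 1.28. In macrophages they were 1.67, 1.17 and 2.32, where the members had 0.30, 1.04 and 1.14. The CD8 medians were -0.45, 0.26 and -0.00. Gbp2, a guanylate-binding protein, had 24.6 CPM in vehicle macrophages, 103 with ORIN1001, 60.2 with docetaxel and 161 with the combination. Isg15 in the same cells was 226 CPM with ORIN1001 and 446 with docetaxel, the reverse order of these libraries. This difference between the lists is a description of 4 libraries.

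Marker levels also differed between the libraries of the neutrophil class. The 10 neutrophil markers summed to 75562 CPM in vehicle, 86138 with ORIN1001, 41494 with docetaxel and 35687 with the combination, with none at 0. Monocyte markers summed to 609, 1216, 979 and 1262 CPM and macrophage markers to 1337, 839.6, 972 and 1199 CPM. Fibroblast markers were at 65.9 CPM with ORIN1001 and under 1 CPM elsewhere. Outside neutrophils, S100a8 and S100a9 stood at no more than 1.41% of their neutrophil level in any class, and neutrophil RNA scaled to them would supply at most 3.38% of the members' summed level. The part of the changed neutrophil marker level in the members' ratios was not tested.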

How the data were processed

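The deposited files hold raw UMI counts per gene and barcode for 4 libraries, made by the authors with Cell Ranger 5.0.1, per the file headers. The submitters' processing notes name the build mm10 and Seurat 4.0.1; the use of intronic reads is not stated there. The counts had not been normalized, and barcodes began at 500 to 503 UMIs.

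Per cell, the share of each of 10 marker lists with a UMI was computed. A cell joined the list with the highest share if at least 3 of its markers had a UMI and the share was at least 0.2 above that of every other list. T cells were split by Cd8a, Cd8b1, Cd4 and Foxp3. Of kept cells, 11.4% to 18.5% a library lay within 0.1 of that margin. No doublet caller was run for the main values; cells with mixed markers stay ungated through the margin, and removing the cells with the highest Scrublet scores, 0.8% of cells for every 1000 in the library, was an alternative. UMIs were summed per class and library and scaled to CPM, and for ratios a gene with no UMI was given the floor of 3 UMIs. With 1 library a group no test across samples exists, and intervals cover counting error only.

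Named members are Isg15, Ifit3, Rsad2, Usp18, Irf7, Stat2, Irf9, Oasl2 and Bst2 in neutrophils, macrophages and CD8 T cells. To these come, in each class and comparison with vehicle, the 2 highest and the lowest ratio among members with at least 30 UMIs in the higher library, and the members whose ORIN1001 and docetaxel ratios differ most in either direction in those 3 classes. The members and lists were chosen with earlier results of these data known. Mx1 and Mx2 are not analysed here, and 1 gene of the fixed pathway lists and 1 split of the CD8 class are not reported here. Promoters are RefSeq windows of 300 bases. The ratio intervals were tried on simulated Poisson counts. The gates were tried on simulated cells of equal depth, drawn from the summed profiles of gated neutrophils, macrophages, NK cells and pDC. Neither simulation held spread between cells or doublets, so neither shows how well real cells were classed. Python 3.11.15, numpy 2.4.6, scipy 1.17.1, pandas 2.3.3, scanpy 1.11.5 and matplotlib 3.10.9 were used. Clusters were built without the members and named by the same marker lists. Alternatives were other marker minimums and margins, clusters in place of gates, Scrublet, other cell filters, trimmed-mean scaling, means over cells, thinned cells and other UMI minimums.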

Additional observations from a re-analysis of the deposited data

Results flagged for a closer look

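The members' summed level differed in direction between classes under the same comparison, and none of these differences was tested. With ORIN1001 against vehicle the log2 ratio of the sum was -0.66 (-0.70 to -0.63) in CD8 T cells, -0.61 (-0.68 to -0.53) in cDC and -0.13 (-0.23 to -0.03) in NK cells, while it was above 0 in neutrophils, macrophages, monocytes and epithelial cells. In pDC and Treg it was -0.03 (-0.10 to 0.04) and -0.05 (-0.11 to 0.02). For the combination against vehicle it was -0.19 (-0.22 to -0.16) in CD8 T cells and above 0 in the other 8 classes. For the combination against docetaxel it was 0.21 in neutrophils, 0.13 in macrophages and 0.10 in monocytes, and below 0 in the other 6.

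Some cells outside the comparisons had higher members with docetaxel. T cells that passed neither the CD8 nor the Treg gate had a summed log2 ratio of docetaxel to vehicle of 1.18 (1.14 to 1.21), with 6766 against 2996 CPM. Ungated cells had 0.91 (0.89 to 0.92), with 9497 against 5059 CPM. The 20 B cells of the docetaxel library had a lower sum, with -0.45 (-0.69 to -0.22) and 1731 against 2371 CPM. Their median over the 7 members tested was 0.16, where that of all genes tested was -0.60, so sum and median differed in direction.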

How the results depend on the processing

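No paired analysis was possible because each group is 1 library. Of 610 medians recomputed under alternatives, 580 stayed within the members' median counting interval and 28 moved out of it. The other 2, both epithelial, were counted as reversed, with a changed sign where the main median passed 1.5-fold. The combination to ORIN1001 (-0.71 with clusters) lay outside its interval of -0.59 to 1.88. The combination to docetaxel (0.070 thinned) lay within its interval of -1.31 to 0.11. The sign changed in 13 medians, of which 10 were among the 580. Of 113 values of the combination against the sum of single effects, 4 moved and 7 changed sign within their interval (CD8 T cells 3, cDC 3, Treg 1). Of 1220 counts of members past 1.5-fold, 195 differed by more than 1.5 times. The 10 were the ORIN1001 medians of monocytes (-0.011 with a margin of 0.3, -0.077 thinned), Treg (-0.20 with clusters, -0.071 as means over cells) and pDC (-0.085 thinned), the combination to docetaxel in monocytes (-0.149 to -0.0053 under 4 alternatives) and the combination to ORIN1001 in pDC (-0.097 thinned). The cause was not tested. With clusters in place of gates the medians were 0.48 for ORIN1001 in neutrophils; 0.87 for docetaxel, 0.97 for the combination and 0.66 for the combination to ORIN1001 in macrophages; 0.82 for the combination, -0.18 for the combination to docetaxel and 0.62 for the combination to ORIN1001 in monocytes; and 1.72 for ORIN1001, -0.71 (reversed) for the combination to ORIN1001 and -2.41 for the combination against the sum in epithelial cells. Single members reversed with clusters: Rsad2 in cDC (combination, 0.064), Ifi27l2a in NK cells (ORIN1001, -0.27), Oasl2 in CD8 T cells (0.20 for ORIN1001, 1.46 for docetaxel), Usp18 in Treg (ORIN1001, -0.034) and Parp9 in epithelial cells (ORIN1001, 0.45). Without the cells of highest Scrublet score, CD8 medians were -0.35 for the combination and -0.87 for the combination to docetaxel, and Oasl2 there was 0.052 for docetaxel. Trimmed-mean scaling gave neutrophil medians of 0.63, 0.98 and 1.19 for the 3 comparisons with vehicle and 0.52 for the combination to ORIN1001. Means over cells gave 0.13 for ORIN1001, 1.02 for the combination and 0.044 for the combination to docetaxel in macrophages, 0.70 for docetaxel in CD8 T cells and 0.90 in epithelial cells. Cells thinned to 1000 UMIs gave 0.11 for ORIN1001 and 0.92 for the combination in macrophages, 1.25 for the combination to ORIN1001 in monocytes, and, from few members, 0.070 (reversed) for the combination to docetaxel and -3.06 against the sum in epithelial cells, where a minimum of 30 UMIs gave -2.53.

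Subsets chosen after seeing the data gave these medians. CD8 T cells without neutrophil or macrophage UMIs had -1.20 for ORIN1001, -0.44 for the combination and 0.62 against the sum. Neutrophils with Siglecf had 0.65 for ORIN1001 and 1.36 for the combination. cDC without Xcr1 or Clec9a had -1.43 for ORIN1001, 1.70 for the combination to ORIN1001 and 0.69 (reversed) for Rsad2 in the combination. The ORIN1001 cDC, pDC and epithelial libraries and the docetaxel epithelial library held under 50 cells, so depth limits those values most. Leaving out 1 library of a comparison leaves that comparison without a group, so it was not done.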

Other observations

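In monocytes 11 of the 37 members tested lay below vehicle with ORIN1001 and none with docetaxel, and in Treg these counts were 7 of 30 and 0 of 35. T cells outside the CD8 and Treg gates had a median log2 ratio of 0.20 for ORIN1001, 1.26 for docetaxel and 0.85 for the combination, and of -0.36 for the combination to docetaxel. Ungated cells had medians of 0.33, 0.89, 0.80 and -0.15 for the same 4 comparisons. B cells numbered 9 to 37 a library and had at most 8 members with enough UMIs.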
